A study of Canis lupus familiaris with 15 samples.

Results

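Transporters and repair proteins that set how much doxorubicin or platinum stays in a cell, or how much of its damage is mended, were followed across primary osteosarcomas (OSA) of 15 pet dogs. The 10 genes were listed by name, as ABCB1, ABCC1, ABCC4, ABCG2, SLC31A1, ATP7A, ATP7B, ERCC1, GSTP1 and CBR1, by a rule that applies no cut on measured values. Of these 10 genes, 7 had at least 1 probeset that carries their symbol alone, with 11 such probesets between them, out of 42860 probesets tested and 15115 genes with a probeset of 1 symbol. ATP7B had 1 probeset and GSTP1 had 3 that carry several symbols, and CBR1 had none, so these 3 genes are given no value. ERCC1 had 1 more probeset with several symbols, which was not used.

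The tumors were from client dogs with spontaneous appendicular OSA, had seen no chemotherapy, and were taken at amputation, after which the dogs received the drugs. Each tumor was hybridised to 1 Affymetrix Canine 2.0 array. The cohorts were set by the disease free interval (DFI), which was shorter than 100 days in 1 cohort (DFI < 100, n = 8) and longer than 300 days in the other (DFI > 300, n = 7), and are called poor and good responders in the study, and the comparison asks which transcripts differ between them. Of the DFI < 100 dogs, aged 4.4 to 10.8 years, 4 were spayed females and 4 castrated males, and of the DFI > 300 dogs, aged 7.1 to 13.4 years, 3 and 4. The DFI < 100 tumors were 5 osteoblastic and 3 giant cell, and the DFI > 300 tumors 6 osteoblastic and 1 poorly differentiated. Doxorubicin was given to 3 DFI < 100 dogs, 1 of them female, and 4 DFI > 300 dogs, all male. A platinum drug was given to 5 DFI < 100 dogs (3 cisplatin, 2 carboplatin), 3 of them female, and to 3 DFI > 300 dogs (2 cisplatin, 1 carboplatin), all female. Sex and cohort therefore overlap only in part within a drug class. Among the good responders sex and drug class cannot be told apart, which bears on every comparison between the classes. Greyhounds were 3 of the DFI < 100 and 1 of the DFI > 300 dogs.

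Doxorubicin is an anthracycline that poisons topoisomerase II, and cisplatin and carboplatin bind DNA and crosslink it. ABC transporters use ATP to pump doxorubicin, drug conjugates and many other compounds out of the cell. Platinum drugs share carriers with copper, entering in part through SLC31A1 and leaving through the copper pumps ATP7A and ATP7B. Inside the cell they meet glutathione and metallothioneins, and the adducts they leave on DNA are removed by nucleotide excision repair, in which ERCC1 cuts the strand with its partner ERCC4. All values below are log2 of the deposited PLIER signal, and a difference of 1 is a doubling. The level of 1 gene is not set against that of another, since probes differ in affinity.

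Osteoblast markers were high in the tumors. Of 10 in the list, 8 were measured and 7 of these had a mean above log2 6.79, the upper range of control probesets for reporter sequences, and RUNX2, ALPL, IBSP, SPP1, COL1A1, COL1A2 and PTH1R were above it in all 15 dogs. Macrophage markers were above it too, in mean, for 9 of 9 genes. In bulk tumor RNA, fewer cells of a type and less RNA per cell cannot be told apart. The median signal of an array ran from 46.6 to 54.7 on the linear scale.

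ABCG2, ABCC1 and SLC31A1 had means above the reporter level. ERCC1 (mean 6.36), ABCB1 (5.55), ATP7A (5.53) and ABCC4 (4.31) had means below it, as did most genes, since 42.7% of the 15115 genes were above. The genes differed in how far they spread over the dogs. ABCB1 had an SD of 1.16 over 15 dogs, larger than that of 93.9% of genes of like mean, and ABCG2 had an SD of 1.04, larger than 90.2%. ATP7A followed with 0.79 (82.9%) and ABCC4 with 0.42 (52%). The steady genes were SLC31A1 with 0.45 (38.4%), ABCC1 with 0.36 (26.2%) and ERCC1 with 0.30 (22.3%).

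**Figure D1:**
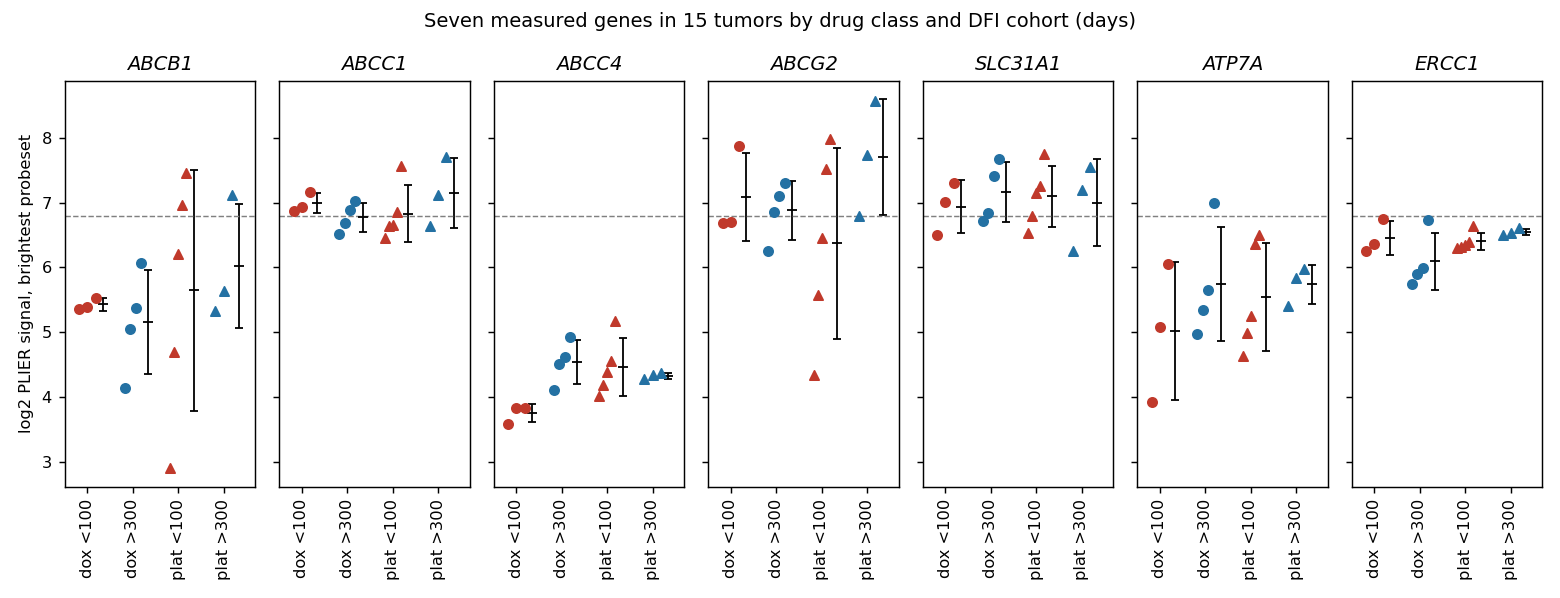
Log2 PLIER signal of the brightest probeset (y axis) of 7 genes in 15 tumors, by drug class (dox, doxorubicin, circles; plat, platinum, triangles) and DFI cohort (red, DFI < 100; blue, DFI > 300), with the mean and SD of each group in black and the reporter level of 6.79 dashed. ABCB1 and ABCG2 are spread widest among the platinum dogs, and in ABCC4 the 3 doxorubicin dogs of the DFI < 100 cohort lie below the 4 of the DFI > 300 cohort.

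ABCB1 encodes P-glycoprotein, the pump best known for expelling doxorubicin. Its 1 probeset was at 2.90 (lowest), 5.46 (median) and 7.46 (highest) in the DFI < 100 dogs and at 4.14, 5.38 and 7.12 in the DFI > 300 dogs. The good responders lay wholly within the range of the poor responders. The means were 5.56 ± 1.41 (SD, n = 8) and 5.53 ± 0.92 (SD, n = 7), a difference of 0.03 (95% interval -1.22 to 1.29, adjusted p = 1 in limma), so a difference of up to 2.44-fold was not excluded at this number of dogs. Among doxorubicin dogs, the 3 poor responders were at 5.35, 5.40 and 5.53 and the 4 good responders at 4.14, 5.05, 5.38 and 6.07. Here too the groups overlapped, with a difference of 0.27 (SE 0.90, exact permutation p = 0.657). Among platinum dogs, the 5 poor responders were at 2.90, 4.69, 6.21, 6.97 and 7.46 and the 3 good responders at 5.33, 5.63 and 7.12. That difference was -0.38 (SE 0.86, exact permutation p = 0.768).

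In ABCB1 the carboplatin dogs lay apart from the others, while cisplatin and doxorubicin dogs overlapped. The 3 dogs that later received carboplatin had the 3 highest values of the series, 6.97, 7.12 and 7.46. The 5 cisplatin dogs were at 2.90 to 6.21 and the 7 doxorubicin dogs at 4.14 to 6.07. ABCB1 was the 1 gene of the 7 measured whose carboplatin dogs did not overlap with all the other dogs, beside 0.152% of all 15115 genes. This grouping was picked after the values were seen and is a description without a test. The tumors were taken before any drug was given, and 2 of the 3 carboplatin dogs belong to the DFI < 100 cohort.

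ABCG2, the breast cancer resistance protein, is a pump with a broad range of substrates that includes anthracyclines. It was at 4.34 (lowest), 6.70 (median) and 7.99 (highest) in the DFI < 100 dogs and at 6.26, 7.10 and 8.58 in the DFI > 300 dogs. The cohorts overlapped between 6.26 and 7.99, and the mean was 6.64 ± 1.23 (SD, n = 8) against 7.23 ± 0.75 (SD, n = 7). The difference of -0.59 (95% interval -1.67 to 0.49) had an adjusted p of 0.999 in limma, and without dog 208756, the lowest, it was -0.26. Among platinum dogs, the 5 poor responders were at 4.34, 5.58, 6.45, 7.51 and 7.99 and the 3 good responders at 6.80, 7.74 and 8.58. The 3 lowest values were all of poor responders, but the other 2 lay among the good responders. This was the largest difference of any of the 7 genes in either drug class, -1.33 (SE 0.71) or 2.51-fold, and it did not pass (limma adjusted p = 0.945, exact permutation p = 0.214). Without dog 208756 it was -0.82. Among doxorubicin dogs, the 3 poor responders were at 6.69, 6.71 and 7.88 and the 4 good responders at 6.26, 6.85, 7.10 and 7.31, a difference of 0.21 (SE 0.74, exact permutation p = 0.629). The difference between the drug classes in the cohort difference was 1.54 (95% interval -0.67 to 3.75, limma adjusted p = 0.959). With sex as a covariate the platinum difference was -1.01 and that between the classes 0.95. RNA quality was read from the log2 ratio of 3' to 5' signal in the actin and GAPDH controls. It averaged 2.01 in platinum poor responders and 2.26 in platinum good responders. In doxorubicin dogs it averaged 2.31 and 2.14. Dog 208756 had the lowest ratio of the series, 1.69, and dog 180119, the highest in ABCG2, was at 2.14. The part of RNA quality in ABCG2 was not tested.

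Both probesets of ABCG2 gave this picture. Over 15 dogs they correlated with r = 0.982 (permutation p = 1e-05, the smallest 100000 resamples can give; rho = 0.971, permutation p = 1e-05) and r = 0.968 without the 2 farthest dogs. The dimmer probeset had a platinum difference of -1.37 (SE 0.70) and an exact permutation p of 0.214. Giant cell tumors stood high in ABCG2 within the DFI < 100 cohort. The 3 giant cell tumors were at 7.51, 7.88 and 7.99, and the 5 osteoblastic tumors of that cohort at 4.34 to 6.71 with a median of 6.45. ABCG2 was the 1 measured gene of the 7 for which these groups did not overlap, beside 5.65% of all genes, and the subtype was looked at after the values were seen. With osteoblastic tumors only, 5 and 6 dogs, the cohort difference of ABCG2 was -1.27 with an adjusted p of 0.962 in limma.

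**Figure D2:**
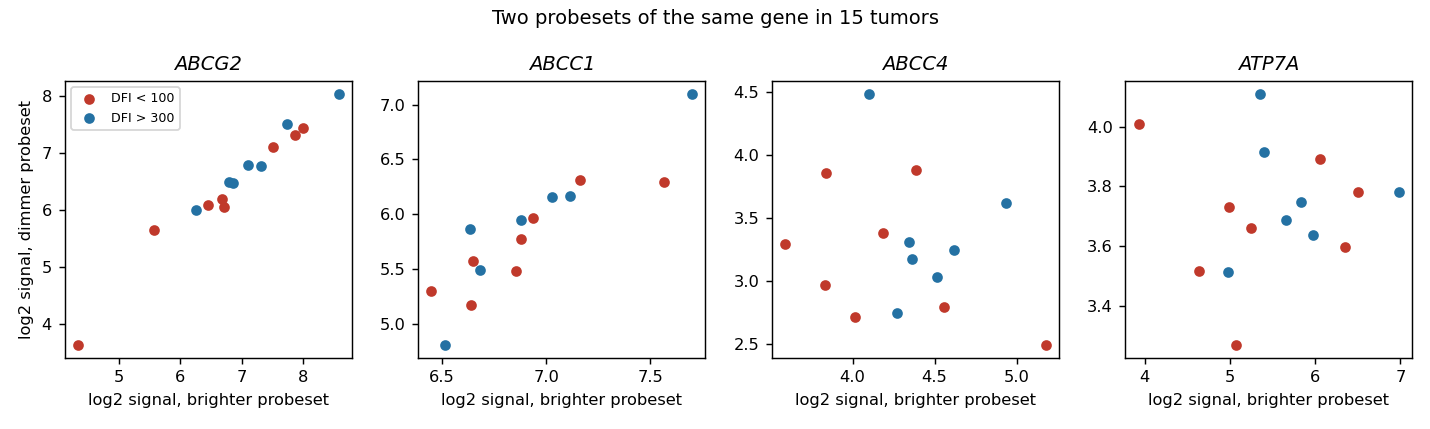
Log2 signal of the brighter (x axis) against the dimmer probeset (y axis) of 4 genes in 15 tumors, red for DFI < 100 and blue for DFI > 300. The points of ABCG2 (r = 0.982) and ABCC1 (r = 0.894) follow a line, and those of ABCC4 (r = -0.27) and ATP7A (r = 0.03) do not.

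ABCC1 encodes multidrug resistance protein 1, which exports doxorubicin and glutathione conjugates. Its brighter probeset ran from 6.45 over a median of 6.87 to 7.57 in the DFI < 100 dogs and from 6.51 over 6.88 to 7.70 in the DFI > 300 dogs. These ranges nearly coincide, and the difference of -0.04 had a 95% interval of -0.47 to 0.38, within 1.38-fold (limma adjusted p = 0.999). Among platinum dogs, the 5 poor responders were at 6.45, 6.64, 6.65, 6.85 and 7.57 and the 3 good responders at 6.63, 7.11 and 7.70. The difference was -0.32 (SE 0.28, exact permutation p = 0.429), and it ran from -0.58 without dog 168327 to -0.0427 without dog 180223. Among doxorubicin dogs, 6.88, 6.94 and 7.16 stood beside 6.51, 6.68, 6.88 and 7.03. The groups overlapped again, with a difference of 0.22 (SE 0.29, exact permutation p = 0.257).

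The dimmer ABCC1 probeset followed the brighter one over the dogs (r = 0.894, permutation p = 1e-05; rho = 0.914, permutation p = 1e-05; r = 0.860 without the 2 farthest dogs) and spread further. In platinum dogs it was at 5.17, 5.29, 5.48, 5.57 and 6.29 in the poor responders and at 5.87, 6.17 and 7.10 in the good responders. Of the poor responders, 4 were below all good responders and the highest was above 2 of them. The difference was -0.82 (SE 0.36), 1.76-fold, with an unadjusted p of 0.0425 and an adjusted p of 0.945 in limma and an exact permutation p of 0.0893, where 56 splits of the dogs allow no p under 0.0357. In doxorubicin dogs its difference was 0.42 (SE 0.38), and that between the classes was 1.24 (SE 0.53, unadjusted p = 0.0347, adjusted p = 0.959 in limma).

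ABCC4, multidrug resistance protein 4, exports nucleotides, prostaglandins and some drugs. Over all dogs its brighter probeset was at 3.59 to 5.18 with a median of 4.10 in the DFI < 100 cohort and at 4.10 to 4.93 with a median of 4.36 in the DFI > 300 cohort. The difference was -0.25 (95% interval -0.71 to 0.21, limma adjusted p = 0.999). In doxorubicin dogs the 3 poor responders were at 3.59, 3.84 and 3.84 and the 4 good responders at 4.10, 4.51, 4.62 and 4.93. Every poor responder was below every good responder, and ABCC4 was the 1 gene of 7 whose doxorubicin cohorts did not overlap, beside 3.84% of all genes. The difference was -0.79 (SE 0.27), 1.73-fold, with an adjusted p of 1 in limma and an exact permutation p of 0.0571, the smallest that 35 splits allow.

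All ABCC4 values were below the reporter level. The dimmer ABCC4 probeset did not follow the brighter one (r = -0.266, permutation p = 0.339; rho = -0.171, permutation p = 0.541; r = -0.067 without the 2 farthest dogs), and in doxorubicin dogs it was at 2.97, 3.29 and 3.85 against 3.03, 3.24, 3.62 and 4.48, which overlap. Its difference there was -0.22 (SE 0.40, exact permutation p = 0.629). In platinum dogs the brighter probeset was at 4.01, 4.19, 4.39, 4.56 and 5.18 in the poor responders and at 4.27, 4.34 and 4.36 in the good responders, so the good responders lay inside the range of the poor. The difference was 0.14 (SE 0.26, exact permutation p = 0.732), and that between the drug classes was -0.93 (SE 0.37, limma adjusted p = 0.959).

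SLC31A1 is the copper importer CTR1, through which platinum drugs enter in part. It was at 6.49 (lowest), 7.09 (median) and 7.76 (highest) in the DFI < 100 dogs and at 6.25, 7.19 and 7.68 in the DFI > 300 dogs. The cohorts covered the same range, with a difference of -0.05 (95% interval -0.57 to 0.46), within 1.48-fold (limma adjusted p = 0.999). In platinum dogs, where this importer bears on the drug given, the 5 poor responders were at 6.53, 6.79, 7.16, 7.26 and 7.76 and the 3 good responders at 6.25, 7.19 and 7.55. The difference was 0.10 (95% interval -0.68 to 0.88, exact permutation p = 0.804). The lowest value was that of a good responder and the highest that of a poor responder. In doxorubicin dogs, 6.49, 7.02 and 7.30 stood beside 6.71, 6.84, 7.42 and 7.68, a difference of -0.22 (SE 0.38, exact permutation p = 0.514).

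ATP7A pumps copper into the secretory pathway and out of the cell and can carry platinum drugs with it. Its brighter probeset was at 3.93 (lowest), 5.16 (median) and 6.50 (highest) in the DFI < 100 dogs and at 4.98, 5.65 and 6.99 in the DFI > 300 dogs. The difference was -0.39 (95% interval -1.22 to 0.43, limma adjusted p = 0.999), and 2 poor responders were below the lowest good responder. In platinum dogs, 4.63, 4.99, 5.24, 6.36 and 6.50 stood beside 5.40, 5.84 and 5.98, a difference of -0.19 (SE 0.57, exact permutation p = 0.732). In doxorubicin dogs, 3.93, 5.07 and 6.05 stood beside 4.98, 5.35, 5.65 and 6.99, a difference of -0.73 (SE 0.60, exact permutation p = 0.429). It was -1.24 without dog 184844, -0.31 without dog 190030 and -0.18 without dog 212759. In both classes the groups overlapped. The dimmer ATP7A probeset did not follow the brighter one (r = 0.026, permutation p = 0.928; rho = 0.204, permutation p = 0.469; r = 0.301 without the 2 farthest dogs) and ran from 3.27 to 4.11 over all dogs, below the reporter level in each. The brighter probeset was above that level in only 1 of 15 dogs.

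ERCC1, with ERCC4 the nuclease that cuts beside a platinum adduct, had the smallest SD of the 7 genes. The gene was below the reporter level in all 15 dogs. It was at 6.25 (lowest), 6.36 (median) and 6.75 (highest) in the DFI < 100 dogs and at 5.74, 6.51 and 6.74 in the DFI > 300 dogs. The difference was 0.13 (95% interval -0.22 to 0.49), within 1.40-fold (limma adjusted p = 0.999). In platinum dogs the 5 poor responders were at 6.30, 6.32, 6.35, 6.40 and 6.63 and the 3 good responders at 6.51, 6.54 and 6.60. All but 1 of the poor responders were below the good responders, and the fifth was above them. The difference was small, -0.15 (SE 0.22) or 1.11-fold (exact permutation p = 0.143). In doxorubicin dogs the 3 poor responders were at 6.25, 6.36 and 6.75 and the 4 good responders at 5.74, 5.89, 5.998 and 6.74, a difference of 0.36 (SE 0.23, exact permutation p = 0.286). There, 3 of the 4 good responders were below all poor responders. The difference between the drug classes was 0.51 (95% interval -0.19 to 1.20, limma adjusted p = 0.959).

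**Figure D3:**
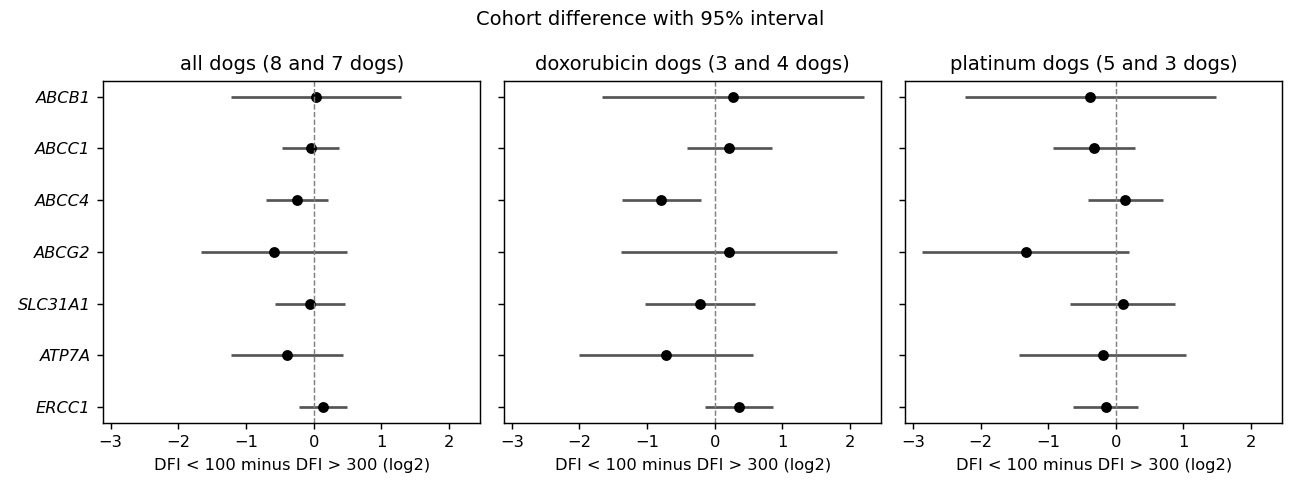
Cohort difference (DFI < 100 minus DFI > 300, log2, x axis) of the brightest probeset of 7 genes, with its 95% interval from limma, over all dogs, doxorubicin dogs and platinum dogs. Every interval crosses 0 except that of ABCC4 in doxorubicin dogs (-1.37 to -0.21), which is not adjusted for the number of probesets.

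The calls among the 7 genes, by their brightest probesets, were set beside those of the whole array. Over all dogs 0 of the 7 genes passed an adjusted p of 0.05, as did 0% of the 42860 probesets (1578 had an unadjusted p under 0.05 in limma and the methods' t-test also called 0), and 0 of 7 had an unadjusted p under 0.05, beside 3.57% of all genes. In doxorubicin dogs 0 of 7 passed, as did 0% of probesets, and 1 of 7 (ABCC4) had an unadjusted p under 0.05, beside 3.26% of genes. In platinum dogs 0 of 7 passed, as did 0% of probesets, and 0 of 7 had an unadjusted p under 0.05, beside 4.72%. In no gene of the 7 were the platinum cohorts free of overlap, beside 4.29% of all genes. Between the drug classes 0 of 7 passed, beside 0.00233% of probesets, and 1 of 7 (ABCC4) had an unadjusted p under 0.05, beside 3.98%. The dimmer ABCC1 probeset, with an unadjusted p under 0.05 in platinum dogs and between the classes, is not in these counts. The 1 probeset that passed there carries LRRIQ4 and has a mean log2 value of -1.50, far below the reporter level. By direction, 2 of 7 were higher in DFI < 100 over all dogs, 4 of 7 in doxorubicin dogs and 2 of 7 in platinum dogs, while 52.8%, 49.5% and 54.2% of all genes were. The medians of the 7 differences were -0.05, 0.21 and -0.19, and of all genes 0.0169, -0.0044 and 0.0367. The comparison over all dogs shares its dogs with the other 2, so these directions are not independent.

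The genes around the 7 were described by lists. Of 13 further ABC transporters of drugs, 10 were measured, 6 were higher and 4 lower in DFI < 100 over all dogs, and 0 passed the adjusted p in any comparison. ABCC11, an exporter of cyclic nucleotides and conjugates, had the smallest p of that list, with 5.07 ± 0.29 (SD, n = 8) against 4.63 ± 0.52 (SD, n = 7) and a difference of 0.43 (SE 0.22, limma adjusted p = 0.999). Its mean over all dogs was 4.86, below the reporter level. Of 16 genes of copper handling and other platinum carriers, 13 were measured, 8 of them higher and 5 lower. SCO1, which delivers copper to cytochrome oxidase, was at 9.85 ± 0.33 (SD, n = 8) against 9.34 ± 0.60 (SD, n = 7), a difference of 0.51 (SE 0.24, limma adjusted p = 0.999). LRRC8A, the core subunit of the volume regulated anion channel that also passes platinum drugs, had a difference of -1.39 (SE 0.56, limma adjusted p = 1) in doxorubicin dogs and -0.14 (SE 0.53, limma adjusted p = 0.988) in platinum dogs, with a mean below the reporter level.

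Glutathione synthesis and transfer and the metallothioneins, which bind platinum in the cytosol, made up 27 genes with 20 measured. In platinum dogs 18 of the 20 were lower in DFI < 100 and 2 higher, with a median of -0.26. The 2 higher were the metallothioneins measured, MT1E (0.40, SE 0.53) and MT2A (0.32, SE 0.40). Of all genes 54.2% were higher there, and their median was 0.04. In doxorubicin dogs 11 were higher and 9 lower, with a median of 0.02. None passed the adjusted p in either class, and 2 had an unadjusted p under 0.05 in platinum dogs, both lower, beside 4.72% of all genes with such a p in either direction and 2.24% lower. GCLM, the modifier subunit of the enzyme that starts glutathione synthesis, had the smallest p, with a platinum difference of -0.70 (SE 0.24, limma adjusted p = 0.945) and a doxorubicin difference of -0.14 (SE 0.25). GSS, the next enzyme of the path, differed by -0.81 (SE 0.44) in platinum dogs.

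Nucleotide excision repair without ERCC1 lay on the other side in platinum dogs. Of 31 genes 27 were measured, 24 were higher in DFI < 100 and 3 lower, with a median of 0.26, and 0 had an unadjusted p under 0.05, beside 4.72% of all genes. In doxorubicin dogs 13 were higher and 14 lower, with a median of -0.06. RPA1, a subunit of the protein that coats single stranded DNA, had a platinum difference of 0.46 (SE 0.25) and a doxorubicin difference of -0.41 (SE 0.26), and that between the classes was -0.87 (SE 0.36, limma adjusted p = 0.959). PCNA, the sliding clamp, differed by 0.38 in all dogs (SE 0.25, limma adjusted p = 0.999). PCNA is also a gene of dividing cells, and of 7 proliferation genes measured 7 were higher in platinum poor responders, with a median of 0.14, and 4 in doxorubicin poor responders. Their part in the repair list was not tested.

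In crosslink and recombination repair, 22 of 27 genes were measured, and 13 were higher and 9 lower in platinum poor responders. There 2 of the 22, FANCA and BRCA1, had an unadjusted p under 0.05 in limma, beside 4.72% of all genes. FANCA differed by 0.86 (SE 0.39, limma adjusted p = 0.945), with a mean below the reporter level. BRCA1, which acts in homologous recombination, differed by 0.71 (SE 0.30, limma adjusted p = 0.945) in platinum and -0.32 (SE 0.31) in doxorubicin dogs. Its mean of 4.68 was below the reporter level. FANCD2, the protein marked by the Fanconi complex at crosslinks, differed by 0.63 (SE 0.46, limma adjusted p = 0.999) over all dogs. In mismatch repair, where 6 of 8 genes were measured, MSH3, which takes part in recognising larger loops in DNA, was at 7.76 ± 0.44 (SD, n = 8) against 7.21 ± 0.51 (SD, n = 7). The difference of 0.55 (SE 0.24) had an adjusted p of 0.999 in limma. MSH3 was the 1 gene of the 6 with an unadjusted p under 0.05 in limma over all dogs, beside 3.57% of all genes. It was also the 1 in platinum dogs, beside 4.72%.

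Of 20 genes for doxorubicin's targets and its reduction by cellular enzymes, 18 were measured, with 8 higher and 10 lower in doxorubicin poor responders and 7 and 11 in platinum poor responders. In doxorubicin dogs POR and NQO2 had an unadjusted p under 0.05 in limma, beside 3.26% of all genes. In platinum dogs POR and SOD2 did, beside 4.72%, and between the classes POR, NQO2 and SOD2, beside 3.98%. Each lay on opposite sides in the drug classes, SOD2 the other way from POR and NQO2. SOD2 differed by -0.26 (SE 0.21) in doxorubicin and 0.44 (SE 0.20) in platinum dogs. Its difference between the classes was -0.69 (SE 0.29, limma adjusted p = 0.959). POR, the reductase that passes electrons to cytochrome P450 and to doxorubicin, differed by 0.73 (SE 0.34, limma adjusted p = 1) in doxorubicin dogs and by -0.93 (SE 0.32, limma adjusted p = 0.945) in platinum dogs, and the difference between the classes was 1.65 (SE 0.46, limma adjusted p = 0.959). NQO2, a quinone reductase, differed by 0.82 (SE 0.31, limma adjusted p = 1) and -0.46 (SE 0.29, limma adjusted p = 0.946), with 1.28 (SE 0.42, limma adjusted p = 0.959) between the classes. TOP1, topoisomerase I, was at 8.88 ± 0.26 (SD, n = 8) in DFI < 100 and 8.41 ± 0.56 (SD, n = 7) in DFI > 300 dogs, a difference of 0.46 (SE 0.22, limma adjusted p = 0.999). The topoisomerase II genes TOP2A and TOP2B differed by 0.32 (SE 0.43) and -0.11 (SE 0.16) over all dogs. In doxorubicin dogs they differed by 0.13 (SE 0.685) and -0.24 (SE 0.23).

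**Figure D4:**
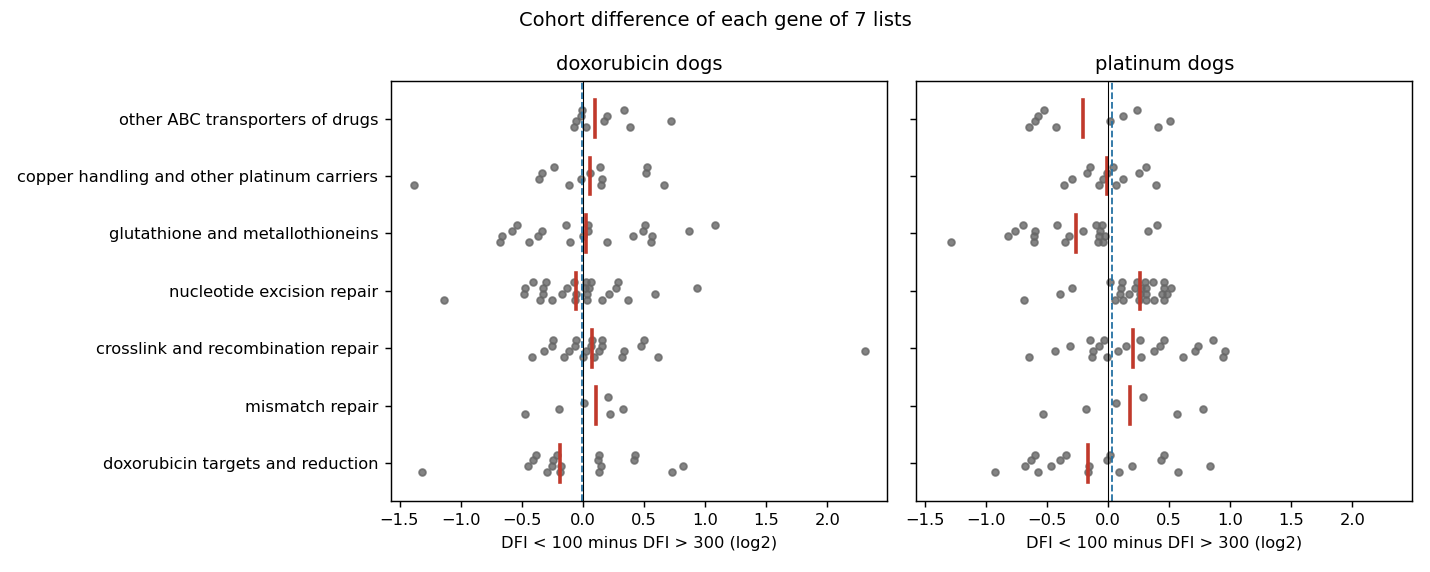
Cohort difference (DFI < 100 minus DFI > 300, log2, x axis) of each gene (grey points) of 7 lists in doxorubicin dogs (3 and 4) and platinum dogs (5 and 3), with the median of the list in red and that of all 15115 genes as the dashed blue line. In platinum dogs the glutathione list lies mostly below 0 (18 of 20) and the nucleotide excision repair list mostly above it (24 of 27).

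Macrophage and osteoclast markers lay on opposite sides in the drug classes. The good responders were all male in the doxorubicin class and all female in the platinum class, so sex and drug class cannot be told apart among them. All 9 macrophage genes were lower in platinum poor responders (median -1.26) and higher in doxorubicin poor responders (median 0.89), and 0 of them passed the adjusted p. The mean of the list ran from 7.39 to 9.52 in the 5 platinum poor responders and from 8.88 to 10.8 in the 3 good responders, and from 8.51 to 9.09 against 7.25 to 9.46 in the doxorubicin dogs. Of the 6 osteoclast genes measured, 6 were lower in platinum poor responders (median -0.73) and 5 higher in doxorubicin poor responders (median 0.74). Of the other lists, 8 of 9 genes of T and NK cells were lower in doxorubicin poor responders (median -0.49). In platinum poor responders 3 of 9 were lower (median 0.19). Only 1 of these 9 genes had a mean above the reporter level. Among doxorubicin good responders the mean of this list was 6.76 in dog 188084 and ran from 3.28 to 4.71 in the others. All doxorubicin poor responders lay within 3.28 to 4.71, so the lower values rest in part on that dog. Endothelial genes, of which 5 of 10 had a mean above the reporter level, were lower in 6 of 10 (median -0.15) in doxorubicin poor responders. In platinum poor responders 7 of 10 were lower (median -0.18). Of all genes, 49.5% were higher in doxorubicin and 54.2% in platinum poor responders. Cartilage genes were lower in 4 of 7 (median -0.48) and 2 of 7 (median 0.24), and muscle genes in 4 of 9 (median 0.01) and 6 of 9 (median -0.26). In platinum dogs 5 of the 7 genes, ABCG2 among them, lay on the same side as the macrophage and osteoclast genes. So did most of the glutathione list and POR, and the part of these cells in those values was not tested.

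ABCG2 was set beside the macrophage list over 15 dogs. The relation had r = 0.624 (permutation p = 0.0121, 0.34 after adjustment over 56 relations) and rho = 0.511 (permutation p = 0.0538, 0.432 adjusted), with r = 0.817 in the DFI < 100 and 0.718 in the DFI > 300 dogs. Without the 2 dogs farthest from the median of ABCG2 it had r = 0.368, so it rests in part on those dogs, and it did not pass the adjustment. With the osteoclast list ABCG2 had r = 0.506 (permutation p = 0.0572, 0.621 adjusted) and rho = 0.596 (permutation p = 0.022, 0.432 adjusted), and r = 0.232 without those dogs. ATP7A had the strongest relation of the 56, with the endothelial list. It had r = 0.700 (permutation p = 0.00407, 0.228 adjusted), rho = 0.743 (permutation p = 0.00235, 0.132 adjusted), r = 0.709 without the 2 farthest dogs, and r = 0.728 and 0.649 within the cohorts. The brighter ATP7A probeset alone was used, which was above the reporter level in 1 of 15 dogs, and its partner does not follow it.

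**Figure D5:**
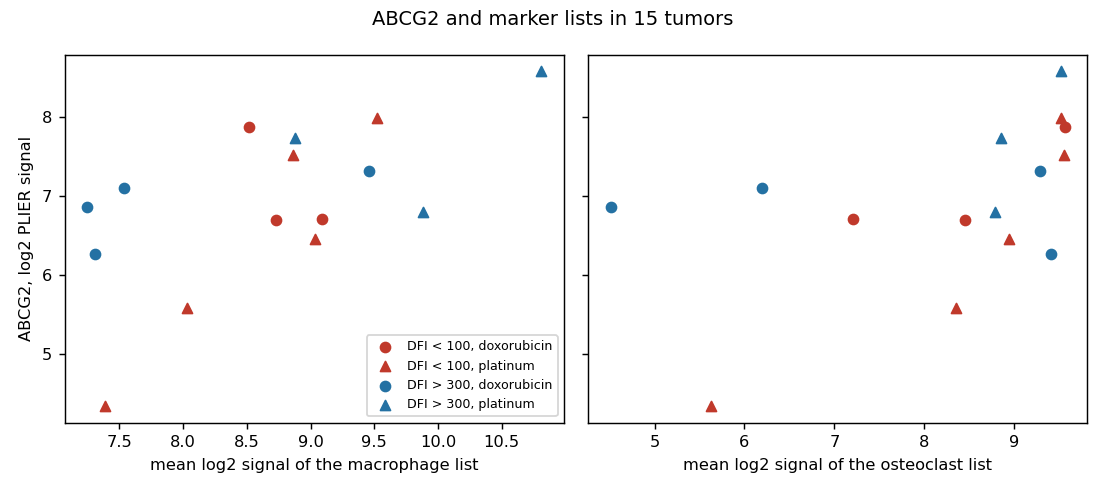
ABCG2 (log2 PLIER signal, y axis) against the mean log2 signal of the macrophage and osteoclast lists (x axes) in 15 tumors, red for DFI < 100 and blue for DFI > 300, circles for doxorubicin and triangles for platinum dogs. The dog with the lowest ABCG2 value (4.34) is also low in both lists, and the one with the highest (8.58) has the highest macrophage mean (10.8).

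The 7 genes varied largely apart from each other. Of 21 pairs, 0 passed after adjustment and r ran from -0.532 to 0.472. The lowest was that of ABCB1 with ABCC1, which had r = -0.532 (permutation p = 0.0417, 0.693 adjusted) and rho = -0.504 (permutation p = 0.0577, 0.708 adjusted). Without the 2 dogs farthest in ABCB1 it had r = -0.372, and it rests in part on them. The dog lowest in ABCB1 (2.90) had the second highest ABCC1 value (7.57).

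The genes most like each of the 7 over 15 tumors, by Pearson's r among 6445 genes above the reporter level, are given as a description. For ABCB1 they were BCAR3 (r = 0.877), TMEM115 (0.857) and LATS2 (0.852). For ABCG2 they were MMD (r = 0.876), a gene named for monocyte to macrophage differentiation, MSRB1 (0.828) and PPM1M (0.821). ABCC1 was nearest to NCSTN (r = 0.824), PTPA and HDGF, and ABCC4 to ARIH1 (r = 0.817), NAA16 and BNIP3L. ATP7A was nearest to CDK9 (r = 0.882), LOC607429 and SNRK, ERCC1 to TMEM260 (r = 0.869), DCAF11 and ASAP1, and SLC31A1 to CAMTA1 (r = 0.758), GABARAP and CWF19L2.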

How the data were processed

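RNA of 15 primary tumors was measured on 1 array each. The authors ran the arrays in more than 1 batch and summarised probes by PLIER with the Affymetrix Expression Console. Values as deposited are intensities, 1 PLIER signal per probeset on the linear scale. How probes were normalized before PLIER, which array was in which batch, and the software versions were not given in the sources used here. Batches could therefore not be compared. Cohorts came from the sample labels, and drug, sex and subtype from the study's description of each dog by number.

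After 175 of 43035 probesets, all controls, were left out, log2 was taken without an offset. The cohorts were tested by limma 3.58.1 (lmFit, eBayes) under R 4.3.3, over all dogs, and within drug classes by contrasts of a fit of 4 groups, with Benjamini-Hochberg adjustment over 42860 probesets and 2-sided exact permutation tests beside it. The study used an unpaired t-test, run here as the methods' t-test. Each dog is 1 replicate, and arrays have no depth, so their number limits the precision. The probeset with the highest mean stands for a gene. The reporter level was the 95th percentile of 64 reporter controls, averaged over arrays. Correlations used 100000 resamples (Python 3.11.15, numpy 2.4.6), 2-sided. The plan foresaw more pairs than the 21 that 7 genes allow.

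Genes were named by rule: all 10 members, the 3 genes of smallest p over all dogs and the 1 within each drug class from each list, and the 3 genes most alike to each member. Not every one of these is described. The members and lists were chosen with earlier results of these data known. Alternatives were the methods' t-test, an offset of 16, limma's trend and robust options, normalization by quantiles, a filter at the reporter level, covariates, subsets of dogs, all probesets averaged and each dog left out. Probeset sequences are not printed, and RT-PCR data were not analysed here. The steps were tested on simulated data.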

Additional observations from a re-analysis of the deposited data

Results flagged for a closer look

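ERCC1 in the DFI < 100 platinum dogs had 1 value apart from the others. The dog numbered 208756 was at log2 6.63, and the nearest of the other 4 at 6.40, so the gap was 0.719 of the range of the group. All these values were below the reporter level. Of 28 groups of values examined, 1 held such a sample, and chance gives about 1 in 20. The same dog had the lowest ABCG2 value of the series (4.34).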

How the results depend on the processing

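Over 28 differences of the 7 genes and 670 values under the alternatives, 0 passed an adjusted p (lowest 0.839), 635 kept direction and side of the threshold and 34 turned sign, in 13 of the 28, and the causes were not tested. Most of the turned differences were near 0. For ABCB1 over all dogs the difference was -0.0234 with sex and -0.0233 with age as a covariate, -0.0697 with drug class, -0.35 in osteoblastic tumors and -0.20 without Greyhounds. ABCC1 over all dogs became 0.0104 under quantile normalization and 0.0287 without Greyhounds, SLC31A1 0.17 in osteoblastic tumors and 0.0115 without Greyhounds, ERCC1 -0.0393 with age, and ABCG2 in doxorubicin dogs -0.0577 with sex.

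With each dog left out, ABCB1 ran from -0.24 to 0.41 over all dogs, -0.0716 to 0.57 in doxorubicin dogs, -0.83 to 0.31 in platinum dogs and -0.038 to 1.10 between the classes. ABCC1 ran from -0.14 to 0.0834 over all dogs, ABCC4 from -0.038 to 0.25 in platinum dogs and ABCG2 from -0.18 to 0.41 in doxorubicin dogs. ATP7A ran from -0.43 to 0.0328 in platinum dogs and -1.05 to 0.0155 between the classes, and SLC31A1 from -0.19 to 0.0452 over all dogs, -0.27 to 0.38 in platinum dogs and -0.60 to 0.0488 between the classes. ABCG2 in platinum dogs stayed between -1.78 and -0.82, and ABCC4 in doxorubicin dogs between -0.94 and -0.66. Without a turn of sign, ABCG2 ran from -0.78 to -0.26 and ATP7A from -0.56 to -0.19 over all dogs, ABCC1 from -0.58 to -0.0427 in platinum dogs, and ATP7A from -1.24 to -0.18 and SLC31A1 from -0.40 to -0.0032 in doxorubicin dogs.

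Counts of probesets past the adjusted p were 2 over all dogs without Greyhounds. In platinum dogs the methods' t-test gave 1 and the arrays of that class alone 3, and in doxorubicin dogs the arrays of that class alone gave 2. With each dog left out the counts ran from 0 to 5 in doxorubicin dogs, 0 to 5 in platinum dogs and 0 to 3 between the classes. They were 5 in doxorubicin dogs without dog 184844 or 212759 and 5 in platinum dogs without dog 180119. Between the classes they were 3 without dog 168327, 180223, 184844 or 212759 and 0 without dog 153599, 173175, 180119, 190030, 193231, 208756, 208911 or 223986. The 1 call between the classes went to 0 with the ordinary linear model, the trend and robust fit, the offset, the filter at the reporter level and sex as a covariate. No paired analysis was possible because the dogs of the cohorts share no numbers.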
